A study of Mus musculus with 11 samples.

Results

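The genes described here are the 10 that make, store, take up or sense serotonin in mouse islets, chosen by symbol from the 55536 genes in the count tables: *Tph1*, *Tph2*, *Ddc*, *Slc18a1*, *Slc18a2*, *Slc6a4*, *Htr1d*, *Htr2b*, *Htr3a* and *Htr3b*. They were measured by bulk RNA-seq of whole pancreatic islets, which hold endocrine, vascular, neural and immune cells together, in 11 libraries from wild type C57BL/6J female mice. The libraries were labelled virgin after S-961 (n = 3), multipara after S-961 (n = 4), virgin without treatment (n = 2) and multipara without treatment (n = 2). The mice were 9 weeks old at the start, and the multipara group went through 3 pregnancies and were studied 3 weeks after the last delivery, with virgin littermates of the same age as controls. S-961, an antagonist of the insulin receptor, was given by intraperitoneal injection for 3 days, and the other mice were labelled as having no treatment. The comparisons asked whether these genes differed with past pregnancies, with insulin receptor blockade, or with both. No source says whether the islets of 1 library came from 1 mouse or from several, so p-values measure the spread between these libraries.

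Serotonin is made from tryptophan by a tryptophan hydroxylase, the rate-limiting step, and then by an aromatic amino acid decarboxylase. It is loaded into vesicles by a vesicular monoamine transporter, released, and cleared by the serotonin transporter. In islets, serotonin is stored with insulin, and during pregnancy the lactogenic hormones prolactin and placental lactogen raise *Tph1* in β cells. The serotonin receptor 2B has been linked to β cell proliferation in pregnancy, 1D to its decline near delivery, and 3A, an ion channel, to insulin secretion.

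The promoters of the genes for both hydroxylases are shown first because *Tph1* went from 0 counts in 1 group to over 100 in single libraries of others, while *Tph2* was detected in every library. Each run is the 250 bases before a transcription start in RefSeq (GRCm38.p6), 5′ to 3′ on the gene's own strand. *Tph1* had a pair of starts, at chr7:46672538-46672787 (minus strand) and chr7:46667378-46667627 (minus strand), and *Tph2* had 1, at chr10:115185023-115185272 (minus strand). Capitals mark TGACG, the core of the cAMP response element, on either strand.
Tph1, upstream start: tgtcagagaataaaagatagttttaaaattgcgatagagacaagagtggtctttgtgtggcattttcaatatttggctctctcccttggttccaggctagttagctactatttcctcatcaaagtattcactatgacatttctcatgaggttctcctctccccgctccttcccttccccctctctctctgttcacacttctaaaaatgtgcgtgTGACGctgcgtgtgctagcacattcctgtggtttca
Tph1, downstream start: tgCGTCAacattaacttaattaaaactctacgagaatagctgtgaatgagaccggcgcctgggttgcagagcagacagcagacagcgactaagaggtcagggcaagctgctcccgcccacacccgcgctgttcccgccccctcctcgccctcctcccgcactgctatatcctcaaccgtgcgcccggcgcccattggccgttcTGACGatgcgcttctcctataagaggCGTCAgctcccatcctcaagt
Tph2: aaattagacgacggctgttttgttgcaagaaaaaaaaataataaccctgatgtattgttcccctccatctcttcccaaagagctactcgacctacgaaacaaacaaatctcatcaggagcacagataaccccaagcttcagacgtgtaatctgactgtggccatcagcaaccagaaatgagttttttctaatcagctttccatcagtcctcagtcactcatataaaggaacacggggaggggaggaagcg
Of the 10 genes, 8 had an entry in the promoter table, with 11 windows of 300 bases. The letters TGACG occurred 1 time before the upstream *Tph1* start, at -36, and 3 times before the downstream start. No match occurred in the *Tph2* window, whereas 20.8% of all 32851 windows held at least 1. Among the other members, TGACG occurred in the windows of *Slc18a2* (2 matches) and *Slc6a4* (1 match, at -101). The longer palindrome TGACGTCA, which contains TGACG, was found in the window of *Slc18a2* alone among the members and in 1.79% of all windows. The letters TTCNNNGAA, a site shape bound by STAT factors, were in 8.3% of all windows and in 0 of the 11 windows of these genes. Gene-level counts do not say which *Tph1* start was used.

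Sequencing depth ranged from 22028508 to 32234164 estimated counts per library. The insulin genes *Ins1* and *Ins2* held 35.3 to 41.4% of all counts without treatment and 13.2 to 20.7% after S-961, and all 8 β cell markers were detected in every group. Levels are given as CPM, the counts scaled to a common library size, after trimmed mean of M-values (TMM) scaling over the 11 libraries, which moves with that insulin share. Differences were tested with edgeR over all genes that passed a filter on low counts, and a gene is called where its p, adjusted over all of them, was under 0.05. The library labelled multipara S-961 4 stood nearest to virgin S-961 1 and 2. Its counts differed from virgin S-961 1, 2 and 3 by a chi-square per gene of 9.19, 11.1 and 41.8, and from multipara S-961 1, 2 and 3 by 53.4, 73.7 and 88.0. Virgin S-961 3 was itself at 53.8 and 59.1 from virgin S-961 1 and 2. Multipara S-961 1 was at 47.5 and 42.6 from the same libraries. *Lrrc55*, which islets raise in pregnancy, was at 22.8 and 24.9 CPM without treatment in multipara islets, against 0.727 and 0.846 CPM in virgin islets. After S-961 the order of *Lrrc55* was the other way, with 5.34 to 7.54 CPM in the virgin libraries and 0.320, 0.596, 1.96 and 4.43 CPM in the multipara libraries. The proliferation markers had a summed level of 244, 223 and 109 CPM in the first 3 multipara S-961 libraries, 8.37 CPM in the fourth and 7.54 to 23.7 CPM in the virgin S-961 libraries. For islets of S-961-treated mice, the paper reported lower cell cycle genes and higher *Lrrc55* and *Matn2* in multipara than in virgin. By the labels, the order here was the reverse for *Lrrc55*, and for the proliferation markers in the first 3 multipara libraries. It was also the reverse for *Lrrc55* and *Matn2* summed. Their sum was 139 to 154 CPM in the virgin S-961 libraries and 42.3, 59.5, 28.9 and 120 CPM in the multipara S-961 libraries. Whether the virgin and multipara labels of the S-961 libraries are as intended could not be settled from these data. Directions between parity groups after S-961 are therefore those of the labels, and the S-961 effects within a parity group rest on the same labels. A treated and an untreated library differed by a chi-square per gene of 266 to 489, against 8.90 to 116 within groups. No vehicle-injected group was labelled. Effects of S-961, of the injections and of any separate handling of the libraries cannot be told apart. An S-961 effect here means the difference between treated and untreated libraries.

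The members spanned a wide range of levels. Per kilobase of exon, *Ddc* had a median of 79.1 CPM over the 11 libraries (46.8 to 110), followed by *Slc18a1* with 3.25 CPM (2.62 to 4.85), and these ranges did not overlap. *Htr3a* (median 0.965 CPM per kilobase), *Tph2* (0.838), *Slc18a2* (0.322) and *Tph1* (0.171) came next, with overlapping ranges between neighbours. *Htr3b*, *Htr1d*, *Htr2b* and *Slc6a4* had medians of 0.0787, 0.0252, 0.0189 and 0.00666 CPM per kilobase, which rested on 64, 34, 22 and 60 counts in all libraries together.

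**Figure D1:**
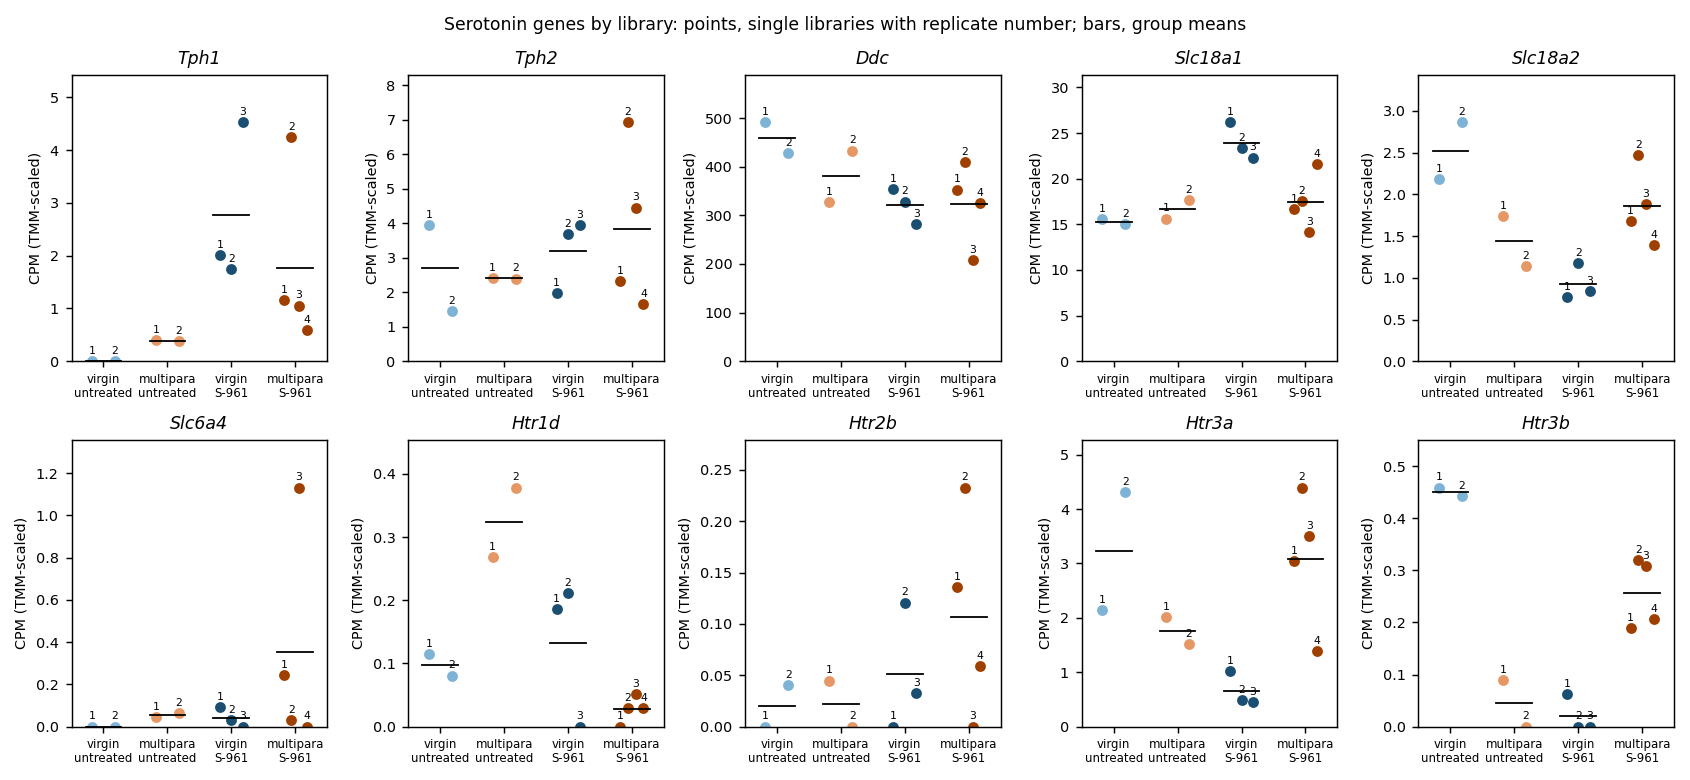
CPM of the 10 serotonin genes (vertical axes, linear from 0) in each library of the 4 groups, with replicate numbers beside the points and horizontal bars at the group means. *Tph1* was at 0 in both untreated virgin libraries and between 1.75 and 4.53 CPM in the virgin S-961 libraries, while *Htr3a* was lowest in the virgin S-961 libraries.

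*Tph1*, the hydroxylase of peripheral tissues, rose with S-961 in the virgin libraries. It had 0 counts in both untreated virgin libraries, which allows up to 0.115 and 0.121 CPM by a limit of 3 counts per library. The virgin S-961 libraries had 65, 58 and 140 counts, or 2.01, 1.75 and 4.53 CPM. The groups did not overlap, and the level after S-961 was at least 23.2-fold higher by that limit (edgeR adjusted p = 0.002). In the fit of all 11 libraries *Tph1* passed the filter only through the S-961 libraries of both parity groups, where it was high. Its p and its lack of overlap between treated and untreated libraries are therefore no separate support for a difference. In the multipara libraries, *Tph1* had 9 and 6 counts without treatment (0.402 and 0.378 CPM, with 95% exact Poisson limits of 0.184 to 0.763 and 0.139 to 0.823) and 43, 146, 41 and 20 counts after S-961 (1.17, 4.25, 1.06 and 0.591 CPM). All 4 treated multipara libraries lay above both untreated ones, but the difference did not pass the test (log2 fold change 2.16 ± 0.87 (SE), edgeR adjusted p = 0.0747). It passed without the library labelled multipara S-961 4 (adjusted p = 0.0415). With multipara S-961 2 left out, the fold change fell to 1.29, with an adjusted p of 0.113.

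Between parity groups, *Tph1* was detected in both untreated multipara libraries and in 0 of 2 untreated virgin libraries, a level at least 3.33-fold higher by the same limit. The gene was too low to enter the fit of the 4 untreated libraries. In alternative fits it was tested and not called, with an edgeR adjusted p of 0.857 without the count filter (unadjusted p = 0.00523) and of 1 with all 11 libraries (unadjusted p = 0.00649). After S-961 the mean level was 2.76 ± 1.53 CPM (SD, n = 3) in virgin and 1.76 ± 1.67 CPM (SD, n = 4) in multipara libraries, and the groups overlapped (log2 fold change -0.65, 95% interval -2.11 to 0.81, edgeR adjusted p = 0.779). The fitted size of the difference between the S-961 effects (-7.21, adjusted p = 0.554) depends on the prior count used at 0 counts and gives no bound. Without multipara S-961 2 the parity difference after S-961 was -1.54, with an adjusted p of 0.553.

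Markers of other cells were set beside *Tph1*. The 10 acinar markers, none of them at 0 in any group, summed to 106 to 220 CPM without treatment and to 6253, 7985 and 2087 CPM in virgin S-961 1, 2 and 3. In multipara S-961 1 to 4 the acinar sum was 14890, 13510, 10430 and 5059 CPM. In each parity group every S-961 library lay above every untreated one in both this sum and *Tph1*, and the part of acinar RNA in the *Tph1* difference was not tested. Of the 8 markers of mast cells, another site of *Tph1*, *Tpsab1* and *Ms4a2* had 0 counts in all libraries. In the multipara S-961 group 2 of the 8 were at 0 throughout, against 5 or 6 in the other groups. The 8 mast cell markers had a median sum of 15.5 CPM in the untreated virgin libraries and 3.53 CPM in the virgin S-961 libraries. Nearly all of it was *Kit* (15.4 and 3.23 CPM on average), the only one of them to pass the filter of the treatment comparisons. In multipara libraries the median sum was 10.5 CPM without treatment and 5.65 CPM after S-961. The 5 platelet and megakaryocyte markers summed to 3.22 to 11.03 CPM over all libraries.

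*Tph2*, the hydroxylase of neurons, was detected in all 11 libraries and showed no difference that passed a test. It had 103 and 36 counts in the untreated virgin libraries (3.94 and 1.45 CPM), 54 and 38 in the untreated multipara libraries (2.41 and 2.40 CPM), 64, 122 and 122 in the virgin S-961 libraries (1.98, 3.68 and 3.95 CPM) and 86, 238, 173 and 56 in the multipara S-961 libraries (2.33, 6.93, 4.45 and 1.66 CPM). The groups overlapped in each of the 4 comparisons. The S-961 effect was 0.25 (95% interval -1.09 to 1.58, edgeR adjusted p = 0.782) in virgin and 0.67 (-0.63 to 1.98, adjusted p = 0.388) in multipara libraries on the log2 scale, so that a more than 2-fold change in either direction was within the first interval. Per kilobase, *Tph2* lay above *Tph1* in 11 of 11 libraries. In counts it did so in 9 of 11, and in 5 of the 7 S-961 libraries. The order per kilobase depends on the lengths used, which joined all annotated exons (6172 bases for *Tph1* and 2879 for *Tph2*).

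*Ddc*, the decarboxylase that completes the synthesis, was by far the most abundant member. Its level was 491 and 428 CPM in untreated virgin, 327 and 433 CPM in untreated multipara, 354, 328 and 282 CPM in virgin S-961 and 353, 409, 209 and 325 CPM in multipara S-961 libraries. The virgin libraries after S-961 lay below those without, but no comparison passed the test (log2 fold change -0.52 ± 0.25, edgeR adjusted p = 0.126 in virgin, and -0.23 ± 0.23, adjusted p = 0.458 in multipara). When the dispersion was estimated from the virgin libraries alone, the first passed with an adjusted p of 0.0143, and with library totals in place of TMM it was -0.05.

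The genes of both vesicular monoamine transporters moved in opposite directions with S-961 in the virgin libraries. *Slc18a1* (VMAT1, the form of endocrine cells) rose from 15.6 and 15.04 CPM to 26.2, 23.4 and 22.3 CPM, without overlap (log2 fold change 0.65 ± 0.17, edgeR adjusted p = 0.0141). *Slc18a2* (VMAT2, which neurons use) fell from 2.18 and 2.86 CPM to 0.773, 1.177 and 0.841 CPM. The groups did not overlap for it either (-1.43 ± 0.36, edgeR adjusted p = 0.0106). The multipara libraries showed neither difference past the test. There *Slc18a1* was at 15.6 and 17.7 CPM without and 16.7, 17.6, 14.1 and 21.6 CPM with S-961 (0.07 ± 0.16, adjusted p = 0.744). *Slc18a2* was at 1.74 and 1.14 CPM without and 1.68, 2.47, 1.88 and 1.39 CPM with S-961 (0.36 ± 0.36, adjusted p = 0.447).

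Both transporter results depended on the scaling and on single libraries. The rise of *Slc18a1* in virgin islets lost its call without virgin S-961 1, untreated virgin 1 or untreated virgin 2 (adjusted p = 0.0505, 0.0822 and 0.109). The fall of *Slc18a2* lost it without untreated virgin 2 (adjusted p = 0.101). With library totals in place of TMM, an alternative chosen after seeing the data, *Slc18a1* rose in both parity groups (1.12 in virgin, 0.65 with an adjusted p of 0.00503 in multipara), and the fall of *Slc18a2* in virgin was -0.96, with an adjusted p of 0.0643. Under that scaling the median of all genes tested was itself 0.43 in virgin and 0.61 in multipara on the log2 scale. Reads of *Slc18a1* are uncertain if strand was not used in counting, because it overlaps *Atp6v1b2* on the opposite strand, which had up to 10977 counts in a library.

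After S-961, the libraries labelled multipara had less *Slc18a1* and more *Slc18a2* than those labelled virgin. *Slc18a1* was 17.5 ± 3.12 CPM (SD, n = 4) against 24.0 ± 1.99 CPM (SD, n = 3), and *Slc18a2* 1.85 ± 0.458 CPM against 0.930 ± 0.216 CPM, in each case without overlap between groups. Neither difference passed the test (log2 fold change -0.45 ± 0.15, edgeR adjusted p = 0.381, and a 95% interval of 0.27 to 1.74, adjusted p = 0.367). Without treatment both leaned the other way (0.12, adjusted p = 0.782, and -0.79, adjusted p = 0.719).

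*Slc6a4*, the plasma membrane serotonin transporter, was nearly absent. It had 60 counts in all, of which 44 were in the library labelled multipara S-961 3 (1.13 CPM) and 9 in multipara S-961 1. The other 9 libraries had 0 to 3 counts each, and both untreated virgin libraries had 0. The gene passed the filter of none of the 5 main comparisons. The neural and glial markers given with *Htr3a* had their highest sum of the S-961 libraries in multipara S-961 3 (18.1 CPM). Their highest sum of all, 20.6 CPM, was in untreated virgin 2, where *Slc6a4* had 0 counts. In multipara S-961 2 the sum was 16.9 CPM with 1 count of *Slc6a4*. The part of these markers' cells in the *Slc6a4* counts was not tested.

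Of the receptors, *Htr3a* and *Htr3b*, the subunits of the serotonin-gated ion channel, fell with S-961 in the virgin libraries. *Htr3a* was at 2.14 and 4.31 CPM without treatment and at 1.02, 0.483 and 0.453 CPM after S-961, without overlap (log2 fold change -2.30 ± 0.53, edgeR adjusted p = 0.00665). *Htr3b* had 12 and 11 counts without treatment and 2, 0 and 0 counts after S-961. Its summed CPM per library was 21.8-fold higher without treatment, with a 95% counting interval of 5.38 to 190 (edgeR adjusted p = 0.011). Without untreated virgin 2 neither was called (adjusted p = 0.0865 and 0.0638), and without untreated virgin 1 *Htr3b* was not (adjusted p = 0.0636). In the multipara libraries *Htr3a* was at 2.01 and 1.51 CPM without and 3.04, 4.39, 3.50 and 1.39 CPM with S-961 (0.80 ± 0.52, adjusted p = 0.24). *Htr3b* there had 2 and 0 counts without and 7, 11, 12 and 7 counts with S-961, a 4.92-fold higher level with a counting interval of 1.27 to 42.1, which did not pass the test (edgeR adjusted p = 0.136).

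*Htr3a* had the largest log2 fold change between parity groups after S-961 among the 6 members in that fit. Its mean was 3.08 ± 1.26 CPM (SD, n = 4) in libraries labelled multipara and 0.652 ± 0.319 CPM (SD, n = 3) in those labelled virgin, without overlap. The log2 fold change of 2.24 ± 0.47 had an unadjusted p of 0.00106 and an edgeR adjusted p of 0.316. Over its 14 alternative fits the adjusted p ranged from 0.0015 with DESeq2 to 0.786. Without the library labelled multipara S-961 4, the fold change was 2.50 with an adjusted p of 0.0134, and 3.16% of all genes tested were then called, against 0% with it. Without treatment the order was the other way (log2 fold change -0.86, adjusted p = 0.719). The difference between both parity effects was 3.10 ± 0.75 for *Htr3a* (edgeR adjusted p = 0.436, DESeq2 adjusted p = 0.0286). *Htr3b* had 23 counts in the untreated virgin and 2 in the untreated multipara libraries, and 2 against 37 counts after S-961. It did not pass the filter of the parity fit after S-961. Alternative fits of that comparison did not call it, with an edgeR adjusted p of 0.38 without the count filter and 0.271 with all 11 libraries. Its fitted interaction (adjusted p = 0.436) rests on libraries at 0 and gives no size.

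Between groups, neural and glial markers had the same order as both channel subunits and *Slc18a2*, but not within every group. The 5 markers (*Phox2a*, *Chrna3*, *Prph*, *Sox10* and *S100b*), none of them at 0 in any library, summed to 13.01 and 20.6 CPM in the untreated virgin libraries and 2.59 to 4.13 CPM in the virgin S-961 libraries. In the multipara libraries the sum was 5.67 and 8.57 CPM without treatment and 12.4, 16.9, 18.1 and 4.85 CPM after S-961. The last was in multipara S-961 4, where *Htr3a* and *Slc18a2* were also lowest of their group. *Htr3b* was lowest of that group in multipara S-961 1 (0.190 CPM). Untreated multipara 2 had more of the markers than untreated multipara 1 but less *Htr3a* (1.51 against 2.01 CPM), *Slc18a2* (1.14 against 1.74 CPM) and *Htr3b*. *Tph2* was also lowest of its group in multipara S-961 4, but its lowest level of all, 1.45 CPM, was in the untreated virgin library that had 20.6 CPM of these markers. The part of neural and glial RNA in the channel and *Slc18a2* differences was not tested. In bulk islets, fewer cells of a type and less RNA per cell cannot be told apart.

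**Figure D2:**
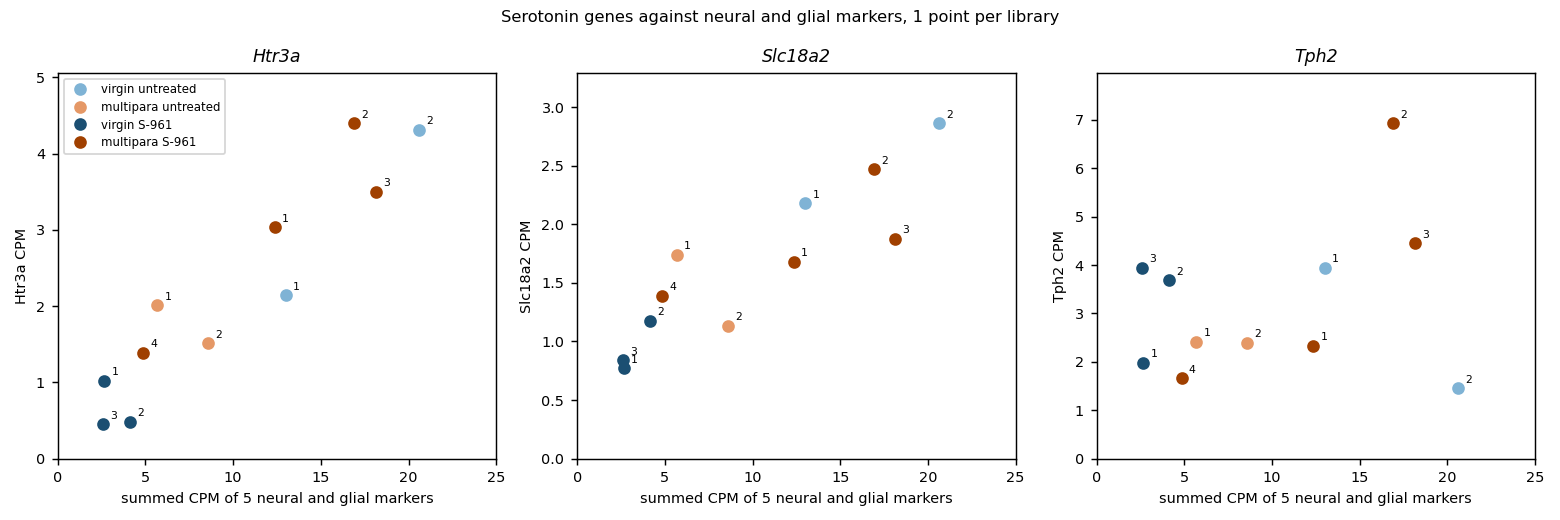
CPM of *Htr3a*, *Slc18a2* and *Tph2* (vertical axes) against the summed CPM of 5 neural and glial markers (horizontal axes), 1 point per library with its replicate number and its group in colour. *Htr3a* was at most 1.02 CPM in the 3 virgin S-961 libraries and at least 1.39 CPM in the others, and the marker sum was 2.59 to 4.13 CPM in the former. *Tph2* was between 1.98 and 3.95 CPM in the virgin S-961 libraries and between 1.45 and 6.93 CPM in the others.

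*Htr1d* and *Htr2b*, the receptors studied in pregnancy, were at the limit of detection. *Htr1d* had 3 and 2 counts in untreated virgin, 6 and 6 in untreated multipara, 6, 7 and 0 in virgin S-961 and 0, 1, 2 and 1 in multipara S-961 libraries. The untreated multipara libraries held 3.2 times the level of the untreated virgin libraries, with a counting interval of 1.05 to 11.6. After S-961 the multipara libraries held 0.206 times the level of the virgin ones (0.049 to 0.667). They held 0.0886 times that of the untreated multipara libraries (0.0208 to 0.292), with an edgeR adjusted p of 0.0614 without the count filter. For S-961 in virgin libraries the ratio was 1.37 (0.46 to 4.92). *Htr2b* had 0 to 8 counts per library, and 4 of 11 libraries had 0. Its few reads are uncertain if strand was not used, since *Psmd1* on the opposite strand had up to 3459 counts. Intervals and limits from counts cover counting error only, and neither receptor passed the filter of any of the 5 main comparisons.

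Counted over all members, S-961 in virgin libraries gave the calls. Of the 7 members that passed the filter, 5 were called, 2 higher (*Tph1*, *Slc18a1*) and 3 lower (*Slc18a2*, *Htr3a*, *Htr3b*), beside 36.6% of all 17969 genes tested. *Tph1* is among the 7 only through the S-961 libraries, so its call is no separate support for a difference. Leaving out the untreated virgin library 2 left 1 call (*Tph1*), and leaving out untreated virgin library 1 left 3. In multipara libraries 0 of 7 members were called, beside 37.7% of all genes, and 1 member (*Tph1*) reached an unadjusted p under 0.05. DESeq2 called 1 there. Both treatment effects come from 1 fit with a shared spread, and whether they differ is the interaction, in which 0 of 7 members and 0% of all genes were called by edgeR. There 5 members and 1178 of 17969 genes had an unadjusted p under 0.05, and DESeq2 called 1 member (*Htr3a*).

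Between parity groups, 0 of 6 members passed in either treatment, beside 0% of all genes in each comparison. An unadjusted p under 0.05 was reached by 3 members after S-961 (*Htr3a*, *Slc18a2*, *Slc18a1*), with 1614 of 16752 genes. Without treatment it was reached by 1 (*Htr3b*), with 889 of 15813 genes. *Htr3b* passed the filter of the untreated fit only through the virgin libraries, with 12 and 11 counts against 2 and 0 in multipara libraries. Its p and its lack of overlap there are therefore no separate support for a difference. DESeq2 called 1 member after S-961 (*Htr3a*) and 0 without treatment. The groups did not overlap for 3 of 6 members after S-961, beside 8.83% of all genes. Without treatment, where 2 libraries stood against 2, they did not overlap for 5 of 6 members, beside 37.7% of all genes. These counts use the scaling of each comparison's own libraries, and on the scaling over 11 libraries *Ddc* did overlap without treatment (327 and 433 against 428 and 491 CPM). For S-961 the same held for 6 of 7 members in virgin, beside 68.4% of all genes, and for 2 of 7 in multipara libraries (*Tph1* and *Htr3b*), beside 49% of all genes.

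**Figure D3:**
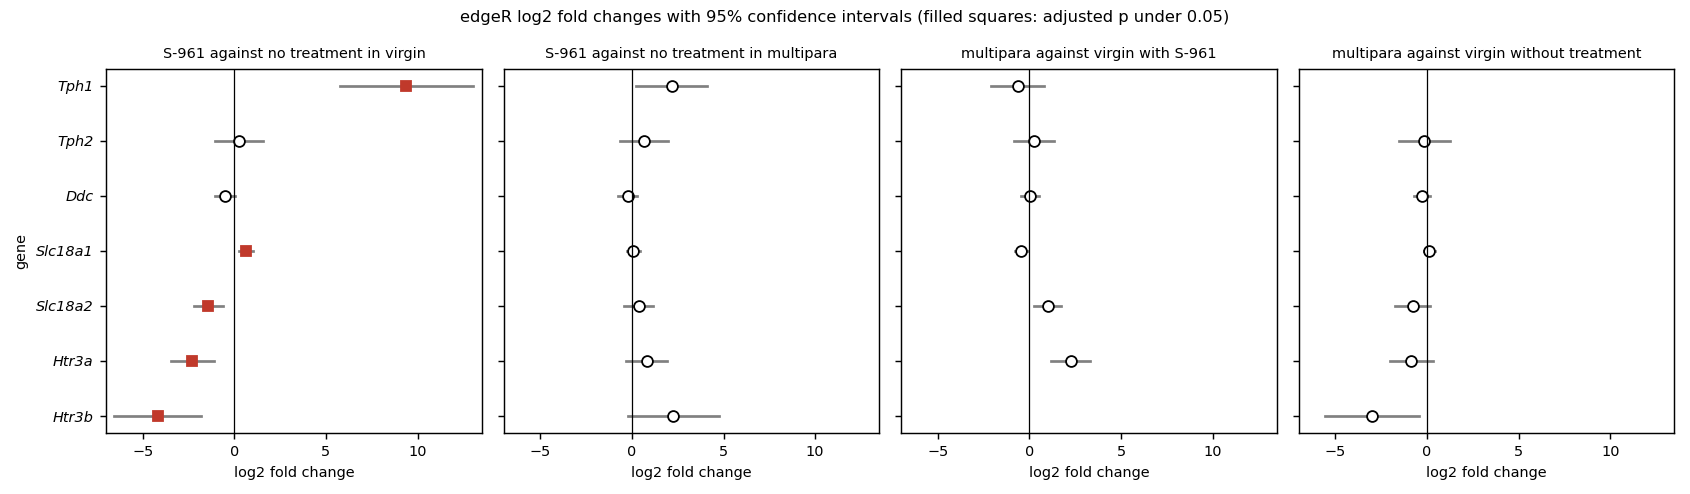
Log2 fold changes (horizontal axes) of the serotonin genes that passed the filter in 4 comparisons, with 95% confidence intervals and filled squares where the edgeR adjusted p was under 0.05. In virgin libraries *Tph1* and *Slc18a1* were higher and *Slc18a2*, *Htr3a* and *Htr3b* lower after S-961, and the size for *Tph1* there depends on the prior count because the untreated libraries had 0 counts.

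Of 71 related genes in 8 lists, 52 passed the filter in the treatment comparisons. S-961 called 17 in virgin (7 higher, 10 lower, median log2 fold change -0.52 against -0.04 for all genes) and 19 in multipara libraries (6 higher, 13 lower, -0.19 against 0.03). The list counts that follow stand beside the same shares of all genes called, 36.6% in virgin and 37.7% in multipara libraries. Over all genes the calls were split into 3392 higher and 3178 lower in virgin and 3269 and 3497 in multipara libraries. With library totals the splits were 6408 against 1272 and 7792 against 1304. Under that scaling all the related genes called higher were still called, whereas of those called lower 3 remained in virgin (*Chga*, *Sult1a1*, *Pts*) and 2 in multipara libraries (*Chga*, *Pts*). Leaving out 1 untreated library lowered the count to 4 (virgin 2) or 7 (virgin 1) and to 6 (multipara 1) or 12 (multipara 2). Leaving out virgin S-961 1 gave 10 and multipara S-961 1 gave 12. The calls that held whichever library of the compared groups was left out were 4 in virgin (*Aldh2*, *Chga*, *Pts*, *Sult1a1*) and 2 in multipara libraries (*Chga*, *Pts*). Between parity groups edgeR called 0 of 47 after S-961 and 0 of 47 without treatment, where 8 and 5 had an unadjusted p under 0.05 and DESeq2 called 2 and 0. In the interaction edgeR and DESeq2 called 0 of 52, and 6 had an unadjusted p under 0.05.

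Of the 8 cofactor genes of serotonin synthesis, 2 fell in virgin and 3 in multipara libraries after S-961, and 0 rose. The hydroxylases need tetrahydrobiopterin, and *Pts*, which makes it, fell from 90.6 ± 2.28 CPM (SD, n = 2) to 45.3 ± 2.03 CPM (SD, n = 3) in virgin libraries (edgeR adjusted p = 0.000829) and by 1.11 on the log2 scale in multipara libraries (adjusted p = 0.000338). *Spr*, the last enzyme of that route, fell in virgin (-0.65, adjusted p = 0.0284), and *Qdpr* and *Pcbd2*, which recycle the cofactor, fell in multipara libraries (-0.64 and -0.68). *Spr* lost its call in 4 of the 5 fits that each left out 1 library (adjusted p up to 0.192), and *Qdpr* and *Pcbd2* in 5 of 6 (up to 0.256 and 0.192). *Gch1*, its first and rate-limiting enzyme, was at 120 to 137 CPM on average in all 4 groups. It was not called.

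Of 14 tested genes of tryptophan transport and the kynurenine route, 3 rose and 2 fell in virgin and 1 rose and 3 fell in multipara libraries. *Slc7a5* and *Slc3a2*, the chains of the LAT1 exchanger that carries tryptophan, fell in virgin (-1.01 and -0.54, edgeR adjusted p = 0.00644 and 0.0135) and in multipara libraries (-0.78 and -0.51), although *Slc3a2* was at 0.08 in multipara with library totals and at -0.34 (adjusted p = 0.176) without untreated multipara 2. *Slc16a10*, a carrier of aromatic amino acids, rose from 216 ± 11.9 CPM (SD, n = 2) to 343 ± 11.3 CPM (SD, n = 3) in virgin libraries (0.67, adjusted p = 0.0123) and by a log2 fold change of 0.73 in multipara libraries (adjusted p = 0.00654). *Slc6a19* and *Slc7a8*, neutral amino acid carriers, rose in virgin libraries (0.98 and 0.57, adjusted p = 0.0295 and 0.0497). *Slc6a19* lost its call whichever of the 5 libraries was left out (adjusted p = 0.0562 to 0.221), and *Slc7a8* in 4 of 5 such fits (up to 0.265). *Kmo*, of the kynurenine branch of tryptophan breakdown, fell in multipara libraries (-2.89, adjusted p = 0.0458). Its untreated multipara mean of 2.58 ± 3.56 CPM (SD, n = 2) rested on 1 library, in which macrophage and lymphocyte markers summed to 784 and 246 CPM. Without that library, untreated multipara 1, the fold change was 2.39 (adjusted p = 0.285).

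Of 6 breakdown genes, 2 fell in virgin, and 3 fell and 1 rose in multipara libraries. *Sult1a1*, a phenol sulfotransferase, fell from 8.96 ± 1.80 CPM (SD, n = 2) to 1.34 ± 0.404 CPM (SD, n = 3) in virgin (-2.74 ± 0.49, edgeR adjusted p = 0.00183) and from 7.65 to 2.65 CPM in multipara libraries (-1.53, adjusted p = 0.0199). *Aldh2*, which oxidises the aldehyde that monoamine oxidase leaves, fell in both (-0.70 and -0.39), though the latter was 0.18 with library totals and -0.23 (adjusted p = 0.331) without untreated multipara 1. *Akr1b3*, an aldehyde reductase, fell in multipara libraries (-0.59, adjusted p = 0.0437) but was not called in 4 of the 6 fits that each left out 1 library (up to 0.210). *Maoa*, the monoamine oxidase that prefers serotonin, rose in multipara libraries (0.56, adjusted p = 0.0153) and was at 0.37 in virgin libraries (adjusted p = 0.0852). *Maob*, the other monoamine oxidase gene, was not called. Its group means were 150 to 185 CPM, against 10.5 to 15.5 CPM for *Maoa*, and its mean was 182 CPM without and 150 CPM with S-961 in multipara libraries.

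Of 4 tested genes of the neighbouring amines, 2 fell in virgin and 1 in multipara libraries. *Th*, the tyrosine hydroxylase of dopamine synthesis, fell in virgin (-0.79, edgeR adjusted p = 0.0109) and multipara libraries (-0.65, adjusted p = 0.021), and *Hdc*, which makes histamine, fell in virgin libraries (-1.185, adjusted p = 0.0429) but lost its call whichever library was left out (0.0674 to 0.159). *Slc29a4*, a plasma membrane monoamine transporter, was the only uptake gene of its list with a call and fell in virgin libraries (-0.60, adjusted p = 0.0114). Its mean was 46.3 ± 6.01 CPM (SD, n = 2) in untreated virgin libraries, where *Slc6a4* had 0 counts, and *Slc6a3*, the dopamine transporter, had 0 counts in every library. Of 10 further serotonin receptor genes, only *Htr1b* passed the filter, and it fell in multipara libraries (-1.66, adjusted p = 0.0391), a call lost in 4 of the 6 fits that each left out 1 library (up to 0.184). It was at 0.894 and 1.198 CPM without and 0.163, 0.436, 0.438 and 0.266 CPM with S-961. *Htr1a* and *Htr2c* had 0 counts in every library.

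Of 9 genes of lactogen signalling and its targets, 1 rose in virgin, and 3 rose and 1 fell in multipara libraries after S-961. *Prlr*, the prolactin receptor, rose from 153 and 222 CPM to 552, 486, 336 and 334 CPM in multipara libraries (1.19 ± 0.26, edgeR adjusted p = 0.0056). In virgin libraries it was at 260 and 217 CPM without and 434, 411 and 308 CPM with S-961, a difference that did not pass (0.69, adjusted p = 0.0651). *Ghr*, the growth hormone receptor, rose in both (0.63 and 0.58, adjusted p = 0.013 and 0.0157). *Stat5a*, a transcription factor downstream of both receptors, fell in multipara libraries (-0.67, adjusted p = 0.0148). *Fev*, the transcription factor of serotonergic neurons, rose in multipara libraries from 4.20 and 3.15 CPM to 8.29, 6.14, 6.77 and 7.27 CPM (0.95 ± 0.22, adjusted p = 0.0067) and was at -0.10 in virgin libraries (adjusted p = 0.739). The lactogen targets *Cish* and *Socs2* were not called, with 0.18 and 0.09 in virgin and 0.57 and 0.19 in multipara libraries.

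Of 7 vesicle genes, 3 rose and 1 fell in virgin and 1 rose and 1 fell in multipara libraries. *Chga*, a chromogranin of dense-core granules, fell in virgin and multipara libraries (-0.99 and -0.84, edgeR adjusted p = 0.000938 and 0.00149), and *Scg2*, a related granin, rose in both (0.83 and 0.73). *Rab3a* and *Sv2a*, proteins of secretory vesicles, rose in virgin libraries (0.73 and 0.68, adjusted p = 0.0287 and 0.0309). *Sv2a* lost its call whichever of the 5 libraries was left out (0.0558 to 0.165), and *Rab3a* in 4 of 5 such fits (up to 0.172).

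**Figure D4:**
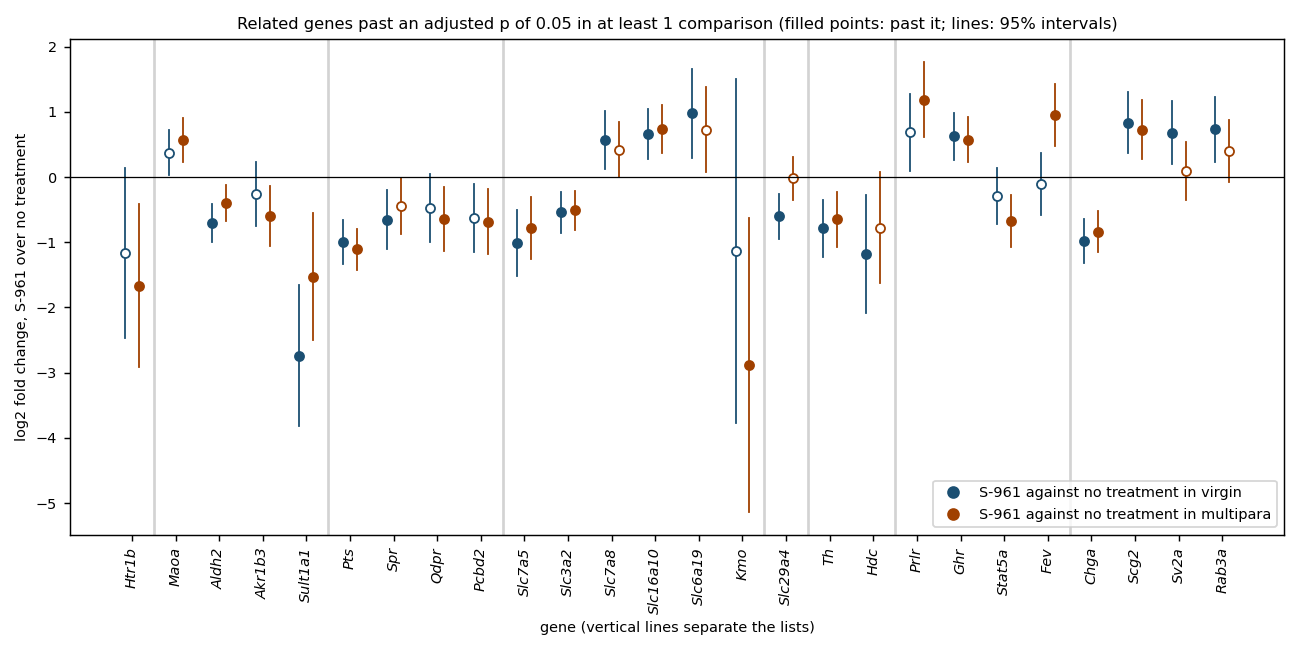
Log2 fold change of S-961 over no treatment (vertical axis) in virgin and multipara libraries for the related genes called in at least 1 of them, with 95% intervals, filled points for an edgeR adjusted p under 0.05, and vertical lines between the lists. *Slc16a10*, *Ghr* and *Scg2* were filled above 0 and *Pts*, *Slc7a5*, *Th* and *Chga* filled below 0 in both parity groups.

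Only *Ddc* and *Slc18a1* were abundant enough, with a mean log2 CPM of at least 2, to look for genes of like pattern among 11286 candidates over the 11 libraries. For *Ddc* the highest Pearson correlations were with *Auh* (0.957), *Elp6* (0.935) and *Tmed10* (0.934). For *Slc18a1* they were with *Gm5113* (0.986), *Armc1* (0.964) and *Pamr1* (0.962). These points share the split of treated and untreated libraries and the TMM scaling, and they are given as a description.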

How the data were processed

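Islet RNA was made into poly(A)-selected libraries with the TruSeq Stranded mRNA kit. The authors deposited 1 table of expected counts (estimated counts from read assignment), not normalized, per library; the submitters' processing notes name STAR, RSEM, GRCm38 and mm10, and the strand setting of counting is not given in the sources used here. Counts were rounded to whole numbers (4449 to 5162 genes per library were not whole). Coordinates and exon lengths (all annotated exons of a gene joined) came from GENCODE M21, which matched 55450 of 55536 genes.

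Tests used edgeR 4.0.16 in R 4.3.3: filterByExpr (minimum count 10, minimum total 15), TMM, quasi-likelihood F-test, and Benjamini-Hochberg adjustment over all genes tested, called under 0.05. Parity comparisons were fitted on the 7 S-961 or the 4 untreated libraries, the others on all 11. The fits were tested on simulated data. Alternatives used DESeq2 1.42.0, other scalings, filters and libraries, and each library left out (a lone library was assumed to vary like the other groups).

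The members and lists were chosen with earlier results of these data known. Of each related list, genes called in any fit were named (up to 6), otherwise up to 3 of the highest CPM. Some genes that were not called, such as *Gch1* and *Maob*, were named beside them. The vesicle list was treated alike. The neural and glial list was summed over 5 genes, and 2 more are not reported here. No library repeated another: same-group pairs differed by a chi-square per gene of 8.90 to 116. *Slc6a4*, *Htr1d* and *Htr2b* were too low for the 5 main comparisons at this depth. Python 3.11.15 and matplotlib 3.10.9 made tables and figures.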

Additional observations from a re-analysis of the deposited data

Results flagged for a closer look

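*Tph1* in the library labelled multipara S-961 2 (4.25 CPM, 146 counts) lay far from the other 3 of its group (0.591 to 1.17 CPM). The gap to the nearest of them was 0.843 of the group's range, above Dixon's 95% critical value for 4 samples. Of the other members, 0 were this far apart in that group, and chance alone marks about 1 in 20 groups. The same library also had the highest *Tph2* and *Ddc* of its group.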

How the results depend on the processing

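Leaving out each library in turn moved the number of members called to 0 to 1 after S-961 between parity groups, 1 to 5 for S-961 in virgin and 0 to 1 in multipara libraries. For related genes the ranges were 0 to 3 and 0 to 7 between parity groups after S-961 and without treatment, and 4 to 14 and 6 to 21 for S-961 in virgin and multipara libraries. DESeq2 called 1 member and 2 related genes after S-961 between parity groups (358 of all genes higher and 11 lower, against 0 with edgeR), 1 member in the interaction and 1 for S-961 in multipara libraries. Without the count filter 1 member, and with library totals (chosen after seeing the data) 2, were called for S-961 in multipara libraries. With only the groups compared in the fit, 26 related genes were called in virgin and 6 in multipara libraries. Deviations from the group means of same-numbered libraries correlated little after S-961 (0.0133 to 0.0942 over the 3 pairs of virgin and multipara). Both untreated pairs gave 0.28. With 2 libraries per group these 2 values must be equal, so they do not settle whether the untreated libraries were paired. With the replicate block, 1 member (*Htr3a*) and 1 related gene were called after S-961 between parity groups (311 of all genes higher and 35 lower), and 1 related gene in the interaction. After S-961 between parity groups, *Ddc* was -0.029 with the replicate block and -0.10 to 0.18 over the libraries left out, and *Tph2* -0.16 to 0.53. *Tph2* was -0.71 to 0.73 without treatment, -0.46 to 0.98 in the interaction and -0.30 to 1.14 for S-961 in virgin libraries. For S-961 in multipara libraries *Ddc* was 0.35 with library totals, and *Slc18a1* -0.045 to 0.17 over the libraries left out. The causes were not tested. Of the alternative fold changes of members, 412 kept their direction and side of the threshold, 12 reversed, 10 passed the threshold anew and 8 no longer passed it. Over all genes, DESeq2 called 22 higher and 34 lower without treatment between parity groups and 59 and 20 in the interaction, and the replicate block 14 and 20 in the interaction, against 0 with edgeR. The fit of the multipara libraries alone called 2112 higher and 2315 lower for S-961, against 3269 and 3497.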
